A study of Arabidopsis thaliana with 6 samples.

Results

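The 5 DELLA genes of Arabidopsis thaliana, GAI (AT1G14920), RGA (AT2G01570), RGL1 (AT1G66350), RGL2 (AT3G03450) and RGL3 (AT5G17490), were followed through 4 chromatin immunoprecipitation (ChIP) peak lists. They were chosen by locus, as the whole gene family, out of 27444 protein-coding genes, and every peak whose summit lay in the gene or within 1000 bp of it was taken as theirs. All 5 carried ENAP1 ChIP peaks in air, beside 38.6% of all protein-coding genes, and 4 in ethylene, beside 36.4%. Together they held 16 peaks over the 4 lists, 15 of them with the summit inside the gene. Such summits were common: the air ENAP1 list of 9712 peaks had 7154 inside protein-coding genes, a summit in overlapping genes counted for each.

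DELLA proteins are nuclear growth repressors of the GRAS family. Gibberellin, a growth hormone, binds its GID1 receptor, the receptor then grips the DELLA domain, and an F-box protein, SLY1, hands the repressor over for destruction. In seedlings DELLA proteins restrain stem elongation and bind transcription factors, among them EIN3 of the ethylene pathway and the phytochrome interacting factors. GAI and RGA act mainly in vegetative growth, RGL2 mainly in seed germination, and RGL3 has been linked to jasmonate signalling.

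The study examined ENAP1, a nuclear protein that binds EIN2, and EIN2, the protein that brings the ethylene signal to the nucleus. Whole Col-0 seedlings, 3 days old and grown in the dark at 24 °C, received 4 hours of hydrocarbon-free air or of the same air with 10 ppm ethylene. ENAP1 chromatin was pulled down with an antibody to green fluorescent protein, and for the reChIP (re-immunoprecipitation) it was pulled down again with an EIN2 antibody. The labels name no tagged ENAP1 line and no promoter for it, and 1 label field of the ethylene samples reads air, where titles and descriptions say ethylene and were followed. There was 1 library per group, so that no difference below had a replicate check. Whole seedlings were used, and binding in fewer cells cannot be told apart from weaker binding in each cell.

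The ENAP1 ChIP libraries held 8400099 (air) and 8811720 (ethylene) tags after duplicates were removed, the reChIP libraries 644263 (air) and 304818 (ethylene). Duplicates were 37% (air) and 34% (ethylene) of the ENAP1 ChIP tags, and 84% (air) and 83% (ethylene) of the reChIP tags. The lists held 8858 to 9881 peaks. The inputs kept 7160364 tags in air and 4809861 in ethylene. ENAP1 pileups were brought to the size of the smaller of ChIP and input library, so equal tags gave a lower pileup in ethylene. The q values, the counts by q and the peaks called in air only are therefore not read as differences between the treatments. The ethylene reChIP list was called against the air reChIP library and the others against an input, so it marks a gain of reChIP signal from air to ethylene. Fold enrichment is the authors' value for a peak over its local control and is compared within a list only. A percentile of fold is the rank of a peak among all peaks of its own list. Tags are the fragments stacked at a summit, given with an exact Poisson 95% interval that covers counting error only.

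Each DELLA gene had an ENAP1 summit at a similar distance inside its lower-coordinate edge. In air, the summit nearest that edge lay 341 bp inside GAI, 340 bp inside RGA, 339 bp inside RGL2, 262 bp inside RGL1 and 414 bp inside RGL3. In ethylene it lay 346 bp inside RGA, 332 bp inside RGL2, 300 bp inside RGL1 and 401 bp inside RGL3, and GAI had no peak. The genes are of similar length, 2082 bp (RGL1) to 2434 bp (GAI). Strand was not used here, so the lower edge is not named as the start or the end of a gene. Among all summits inside protein-coding genes, the median distance to the nearer edge was 172 bp in air (middle 50% from 90 to 332 bp, 7154 summits). Of the 4237 protein-coding genes of 2000 to 2500 bp, 2.27% had an air summit between 262 and 414 bp inside the lower edge, and 4.56% had one inside either edge. That range was read off the DELLA genes themselves, so these shares only describe how common the place is.

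**Figure D1:**
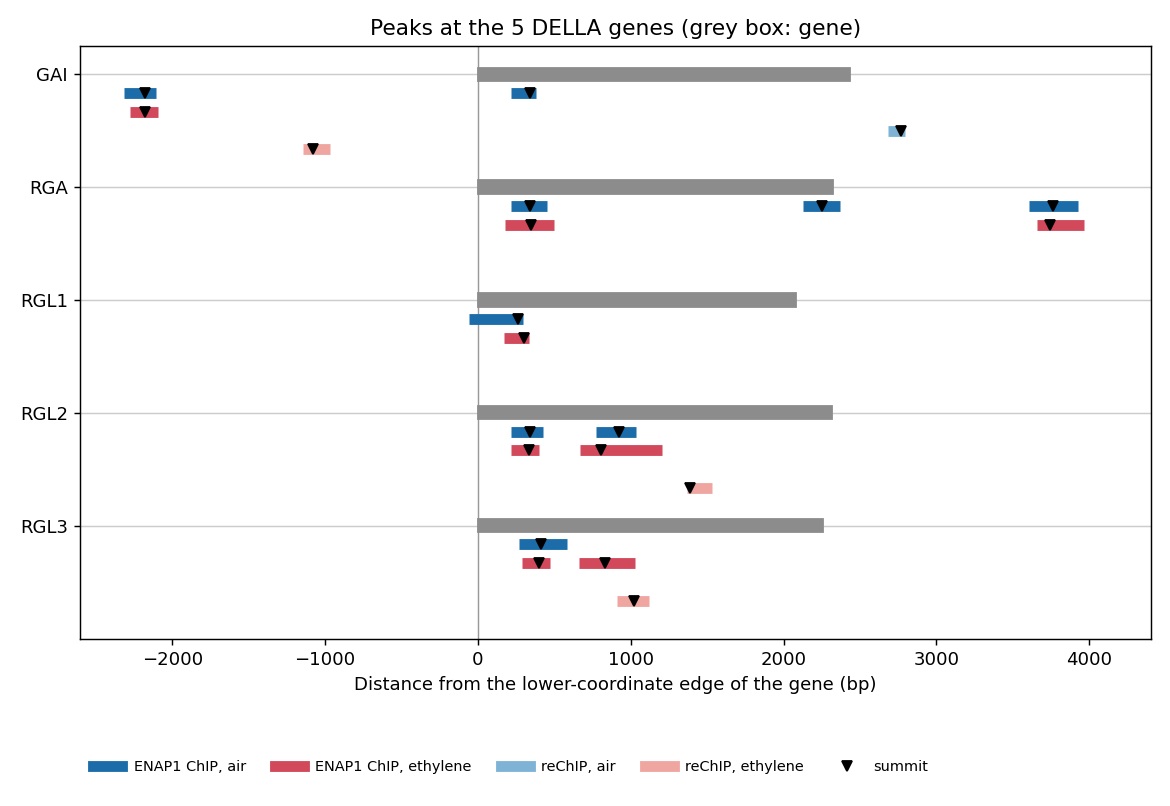
Peaks of the 4 lists (coloured bars, black triangles for summits) at each DELLA gene (grey box) along the distance in bp from the lower-coordinate edge of the gene, with peaks outside the genes shown too. The first ENAP1 ChIP summit inside each gene lies 262 to 414 bp from that edge in air, and GAI has no such peak in ethylene.

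By the 1000 bp rule, 5 of 5 DELLA genes were ENAP1 targets in air, where 38.6% of all protein-coding genes were targets, and 4 of 5 in ethylene, where 36.4% were. Among the genes of 2000 to 2500 bp the shares were 42.9% and 41.4%. All 13 ENAP1 peaks at these genes had a q of 0.05 or lower; that stricter rule made targets of 37.5% of all genes in air and of 34.4% in ethylene. RGA, RGL1, RGL2 and RGL3 were targets in both treatments, as were 31.5% of all genes, and GAI was a target in air and not in ethylene, as were 7.1% of all genes. With −log10 q of at least 5, the count was 2 of 5 in air (RGA and RGL2), beside 26.9% of all genes, and 3 of 5 in ethylene (RGA, RGL2 and RGL3), beside 22.4%. With 5 genes, these counts describe the family and carry no test.

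The peaks were low in fold. In air, 5 of the 7 DELLA peaks lay below the median fold of the list (2.69), and in ethylene 6 of 6 lay below it (2.86). The highest fold per gene in air was 2.86 at RGL2, 2.71 at RGA, 1.98 at GAI, 1.72 at RGL1 and 1.68 at RGL3, with a median of 1.98 beside a median of 2.92 over all 10605 target genes. In ethylene the order was RGL2 (2.83), RGL3 (2.23), RGA (2.16) and RGL1 (1.99), beside 3.07 over all 9993 target genes.

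The number of tags was not low. In air 4 of 7 DELLA peaks, and in ethylene 6 of 6, had more tags at the summit than the median peak (55.0 tags in air, 62.0 in ethylene). The control level under the peak, which the deposited pileup and fold imply, was above the list median at 6 of 7 peaks in air (0.808 to 4.43 times the median) and at 6 of 6 in ethylene (1.87 to 4.42 times). It was highest at RGL3 and at the inner site of RGL2. The control level is computed from the pileup and the fold, so many tags at a low fold give a high level by arithmetic. It is no separate observation, and its part in the low folds was not tested.

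**Figure D2:**
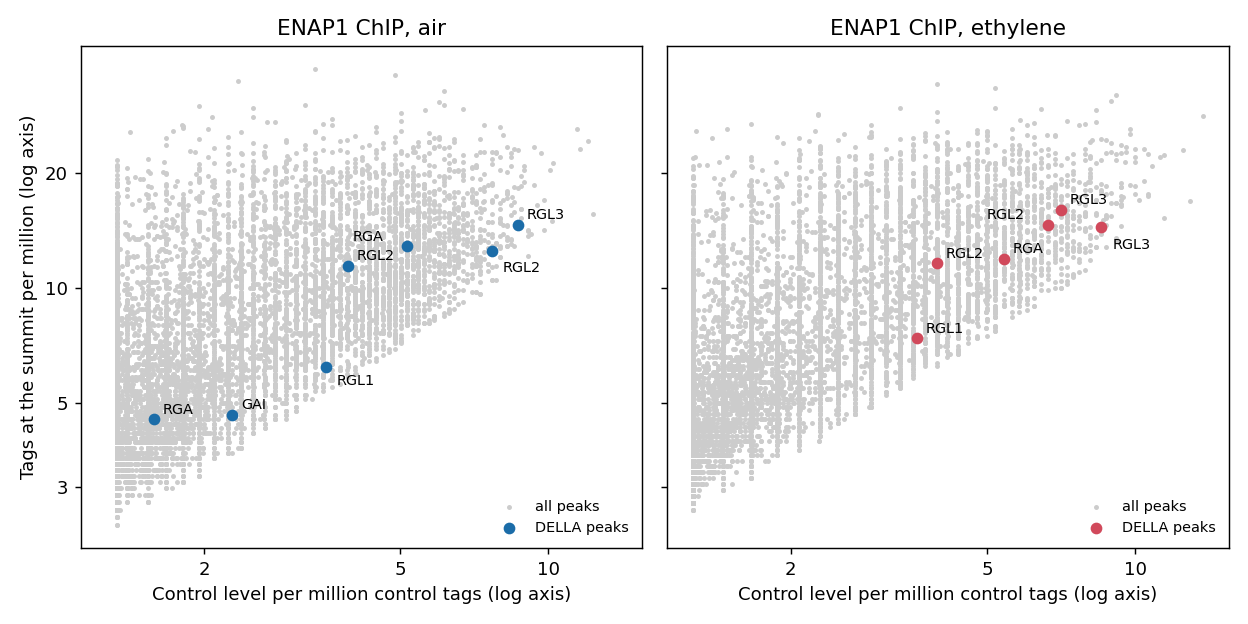
Tags at the summit per 1000000 kept tags against the control level per 1000000 control tags (both log axes) for every ENAP1 ChIP peak (grey) and for the DELLA peaks (coloured), in air (left) and ethylene (right). RGL3 and the inner RGL2 peak lie at 6.64 to 8.66 control tags per 1000000, where the medians over all peaks are 1.96 in air and 1.93 in ethylene.

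At GAI, the gene of the classic gibberellin-insensitive dwarf mutant, the air ENAP1 ChIP peak (1:5149196-5149360, TAIR10, in the gene) had 39 tags (27.7 to 53.3), 1.98-fold enrichment and q = 0.00572. It was among the weaker peaks of its list, with a fold percentile of 12.4. No ethylene ENAP1 peak lay in GAI or within 1000 bp. Loss of a peak at this level of fold was common: air peaks were ranked by fold and divided into classes of 10% of the list, and in the class of GAI (1.93 to 2.14-fold) 47.0% of 969 peaks overlapped an ethylene peak, against 99.9% in the highest class.

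GAI was the sole DELLA gene with an air reChIP peak. That peak (1:5151667-5151778) lay 338 bp beyond the upper edge of GAI, within 1000 bp also of AT1G14930 but nearer to GAI. It rested on 5 tags (1.62 to 11.7), with 3.20-fold enrichment and q = 0.132, and it overlapped no ENAP1 ChIP peak. GAI also had a neighbour just outside the 1000 bp limit: an ethylene reChIP peak (1:5147840-5148017) 1078 bp before the lower edge, with 8 tags (3.45 to 15.8), 5.82-fold enrichment, q = 5.17e-05 and a fold percentile of 97.8. GAI was the nearest protein-coding gene to it, but the noncoding RNA gene AT1G05133 was nearer, at 638 bp. In that noncoding gene itself, 2178 bp before GAI in air and 2180 bp in ethylene, lay an ENAP1 ChIP peak of both treatments (2.91-fold with 74 tags in air, 2.95-fold with 63 tags in ethylene).

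RGA, the other main DELLA gene of stem growth, had 2 ENAP1 ChIP peaks in air and 1 in ethylene. The shared one (air 2:255463-255699, ethylene 2:255424-255743) had 108 tags (88.6 to 130) at 2.45-fold in air and 105 tags (85.9 to 127) at 2.16-fold in ethylene, with q of 1.99e-12 and 6.96e-06. Its summit moved by 6 bp between the treatments. The air-only peak (2:257377-257617) lay at the other end of the gene, 67 bp inside the upper edge, with 38 tags (26.9 to 52.2), 2.71-fold enrichment and q = 1.34e-05. In its class of air peaks by fold (2.69 to 2.96-fold), 77.0% of 972 peaks overlapped an ethylene peak.

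No reChIP peak lay within 1000 bp of RGA in air or ethylene. A stronger ENAP1 peak lay outside the window, 1442 bp past the upper edge in air (2:258855-259171; 115 tags, 5.21-fold) and 1424 bp past it in ethylene (2:258906-259211; 107 tags, 4.95-fold). RGA was its nearest protein-coding gene, and the noncoding RNA gene AT2G04015 lay at the summit in air and 6 bp from it in ethylene. The folds there stood at percentiles of 90.7 and 87.6, above every peak inside a DELLA gene in either ENAP1 list.

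RGL1 had the fewest tags of the sites shared by air and ethylene, and no peak in either reChIP list. It had 52 tags (38.8 to 68.2) at 1.72-fold in air (1:24748046-24748399, q = 0.0150) and 65 tags (50.2 to 82.8) at 1.99-fold in ethylene (1:24748279-24748438, q = 0.00509). The fold percentiles were 4.44 and 9.32. Both summits lay inside RGL1 and 10611 and 10649 bp from ETR1 (AT1G66340), an ethylene receptor gene, so these peaks belong to RGL1 by distance. The gap between the genes was 10348 bp and held another protein-coding gene, AT1G66345. ETR1 had ENAP1 peaks 13882 and 13865 bp from RGL1, at 7.92-fold with 115 tags in air and 4.82-fold with 113 tags in ethylene. ETR1 was a target of both reChIP lists, through a peak of 4 tags in air and peaks of 6 and 4 tags in ethylene.

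RGL2, the DELLA gene of seed germination, was the gene with most peaks, 5 over 3 lists. Near the lower edge it had 96 tags (77.8 to 117) at 2.86-fold in air (3:819557-819765, q = 2.80e-14) and 102 tags (83.2 to 124) at 2.83-fold in ethylene (3:819557-819737, q = 1.25e-09). AT3G03440 also lay within 1000 bp of these summits, which were inside RGL2. Farther inside, it had 105 tags at 1.62-fold in air (3:820110-820372) and 129 tags at 2.17-fold in ethylene (3:820002-820542), with summits 926 and 805 bp from the edge. Together the peaks covered 20.4% of the gene in air and 31.2% in ethylene, the largest shares among the 5 genes in those lists.

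An ethylene reChIP peak (3:820702-820871) lay 1389 bp inside RGL2. It had 4 tags (1.09 to 10.2), 2.63-fold enrichment and q = 0.163, at a fold percentile of 9.98, and it overlapped no ENAP1 peak. No air reChIP peak lay at RGL2.

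RGL3 had the most ENAP1 tags of the 5 genes, at folds below the median of each list. Near the lower edge it had 123 tags (102 to 147) at 1.68-fold in air (5:5764256-5764575, q = 4.13e-05) and 141 tags (119 to 166) at 2.23-fold in ethylene (5:5764278-5764460, q = 3.75e-08). These tag counts stood at percentiles of 89.8 and 90.4 of their lists, while the folds stood at 3.49 and 18.7. A second ENAP1 peak was called in ethylene (5:5764651-5765016; 127 tags, 1.67-fold, q = 0.00228) and not in air. Its fold stood at a percentile of 2.12.

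RGL3 was the sole DELLA gene where a reChIP peak overlapped an ENAP1 peak. Of the 2 ethylene reChIP peaks at DELLA genes 1 overlapped an ethylene ENAP1 peak, as did 17.4% of all ethylene reChIP peaks. The 1 air reChIP peak overlapped no air ENAP1 peak, where 11.3% of all air reChIP peaks did. The ethylene reChIP peak of RGL3 (5:5764896-5765108) had 9 tags (4.12 to 17.1), 4.08-fold enrichment over the air reChIP and q = 0.00381, at a fold percentile of 81.6. Its summit lay 1023 bp inside the gene, and the peak overlapped the second ethylene ENAP1 peak, whose summit lay at 832 bp. With an overlap of at least 50% of both peaks, or with summits at most 100 bp apart, the pair no longer counted as shared. The control level there was 3.50 times the list median, which in this list reflects air reChIP signal.

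Scaled to library size, ENAP1 tags at the shared DELLA sites were close in air and ethylene. Per 1000000 kept tags, the site near the lower edge of RGA had 12.9 (10.5 to 15.5) in air and 11.9 (9.75 to 14.4) in ethylene, and that of RGL1 had 6.19 (4.62 to 8.12) and 7.38 (5.69 to 9.40). RGL2 had 11.4 (9.26 to 14.0) and 11.6 (9.44 to 14.1) there, and 12.5 (10.2 to 15.1) and 14.6 (12.2 to 17.4) at the inner site. RGL3 had 14.6 (12.2 to 17.5) and 16.0 (13.5 to 18.9). The intervals of air and ethylene overlapped at each of these 5 sites.

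The ratio of ethylene to air ran from 0.927 at RGA (0.702 to 1.22) through 1.01 and 1.17 at the outer and inner sites of RGL2 and 1.09 at RGL3 to 1.19 at RGL1 (0.815 to 1.75), and each interval held 1. Over all 7119 overlapping pairs of ENAP1 peaks the median ratio was 1.03, with 5% of pairs below 0.763 and 5% above 1.37. An interval that holds 1 does not show that binding was equal, and it covers counting error only. In ethylene, the control level per 1000000 control tags was 1.05 times its air value at RGA and 1.02 times at RGL1. It was 1.01 times at the outer site of RGL2, 0.864 times at its inner site and 0.816 times at RGL3. The median over all pairs was 0.950. Fragments were taken as 160 bp long in air and 152 bp in ethylene, and neither the control nor the tag ratios were adjusted for this. The median of 0.950 is therefore not read as a drop in control signal.

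**Figure D3:**
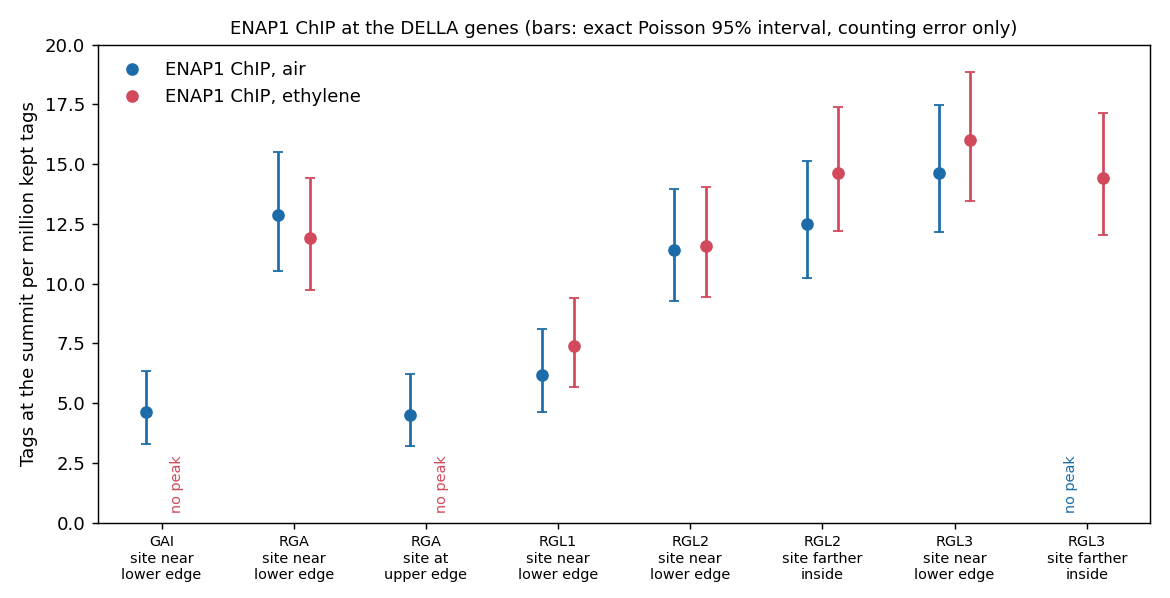
Tags at the summit per 1000000 kept tags for each ENAP1 ChIP peak at the DELLA genes in air (blue) and ethylene (red); bars are exact Poisson 95% intervals, and "no peak" marks a site not called in that list. Intervals of the treatments overlap at the 5 shared sites, GAI and the upper-edge site of RGA have an air value only, and the inner site of RGL3 has an ethylene value only.

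Of the 7 air ENAP1 peaks at DELLA genes 5 overlapped an ethylene ENAP1 peak, as did 72.3% of all air peaks, and of the 6 ethylene peaks 5 overlapped an air peak, as did 79.5% of all ethylene peaks. These shares were near those of the whole lists. In the lowest class of the ethylene list by fold, which held the second RGL3 peak and the RGL1 peak, 68.1% of 885 peaks overlapped an air peak.

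In the reChIP lists the DELLA counts were near or under the background. In air 1 of 5 was a target (GAI), beside 30.5% of all genes, and in ethylene 2 of 5 (RGL2 and RGL3), beside 34% of all genes. With q of 0.05 or lower, the count was 0 of 5 in air, beside 7.07% of all genes, and 1 of 5 (RGL3) in ethylene, beside 22.5%. With −log10 q of at least 5 it was 0 of 5 in each, beside 0.222% of all genes in air and 0.707% in ethylene. GAI was a target of both assays in air, as were 14.3% of all genes, and RGL2 and RGL3 were targets of both in ethylene, as were 16.3%. Of the DELLA genes 0 of 5 were targets of both reChIP lists, beside 9.97% of all genes, and 0 of 5 of all 4 lists, beside 5.06%. With these shares of all genes, a count of 0 does not set the family apart, and the air reChIP library was itself the control of the ethylene reChIP list.

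Of 28 other genes of the gibberellin pathway, 8 were ENAP1 targets in air and 9 in ethylene, beside 38.6% and 36.4% of all genes. In both treatments 8 were targets, beside 31.5% of all genes. The highest peaks by fold lay in GA2OX6, which encodes a gibberellin-inactivating 2-oxidase. It had 99 tags at 7.12-fold in air and 97 tags at 6.74-fold in ethylene. GA3OX3, a gene of the last step of active gibberellin synthesis, came next with 3.82- and 4.32-fold. Its summits lay 894 and 873 bp outside the gene and within 1000 bp of another gene. GA2OX6 and SLY1 were the 2 of the 28 that were targets of all 4 lists, beside 5.06% of all genes. In each list the SLY1 summit lay outside the gene and within 1000 bp of another gene. The air reChIP peak of SLY1 had q = 0.321. No 20-oxidase gene of 5 was an ENAP1 target.

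Among the genes whose products act directly on DELLA proteins, 3 had ENAP1 peaks in both treatments, as did 31.5% of all genes. They were 1 of 3 receptor genes, 1 of 2 F-box genes and 1 of 2 sugar transferase genes. GID1B, 1 of the 3 gibberellin receptor genes, had 35 tags at 2.72-fold in air and 41 tags at 3.11-fold in ethylene, all inside the gene, and a reChIP peak of 4 tags at 3.65-fold in ethylene. GID1A had no peak in any list, and GID1C had an ethylene reChIP peak of 2 tags with q = 0.359. SLY1, the F-box gene, had ENAP1 peaks 112 bp outside the gene in air (2.32-fold) and 750 bp outside in ethylene (2.43-fold), each also within 1000 bp of another gene. SNE, a related F-box gene, had an air reChIP peak 532 bp outside it with q = 0.163. SEC, an O-GlcNAc transferase that modifies DELLA proteins, had 78 tags at 2.93-fold in air and 84 tags at 3.60-fold in ethylene. SPY, an O-fucosyltransferase acting on them, had no ENAP1 peak and an ethylene reChIP peak of 6 tags (4.90-fold, q = 9.17e-04).

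In the reChIP lists the pathway gave 10 of 28 genes in air and 11 of 28 in ethylene, near the 30.5% and 34% of all genes. Highest in air were GA20OX1 (4.37-fold) and KAO2 (4.35-fold), both genes of gibberellin synthesis with 6 tags and q = 0.00983, and these were the only 2 of the 28 with a q of 0.05 or lower, beside 7.07% of all genes. GA2OX3 and GA2OX7 followed (3.75-fold each, q = 0.0507). In ethylene the highest besides GA2OX6 and SPY (4.90-fold each) were GA3OX2 (4.30-fold, 516 bp outside the gene) and GA20OX3 (4.07-fold, 691 bp outside), and 8 of 28 genes had a peak with a q of 0.05 or lower, beside 22.5% of all genes.

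Of 25 further GRAS family genes, 11 were ENAP1 targets in air and 11 in ethylene, beside 38.6% and 36.4% of all genes. Of the 25, 9 were targets in both treatments, beside 31.5% of all genes. By fold, the highest were SCR, a root patterning gene, SCL8, and HAM3, a gene of shoot meristem maintenance. SCR had 98 tags at 4.96-fold in air and 100 tags at 5.23-fold in ethylene. SCL8 stood at 4.11- and 5.24-fold, and HAM3 at 4.08- and 4.17-fold with summits 228 and 201 bp outside. HAM1 in air (3.28-fold) and LAS in ethylene (2.99-fold) followed. The fold at SCR, SCL8 and HAM3 was above that of every DELLA peak in the same list. In air the reChIP list held 4 of the 25, beside 30.5% of all genes: SHR (3.43-fold), PAT1 (2.87-fold), AT3G13840 and AT2G29060, all with q above 0.05. In ethylene it held 12 of the 25, beside 34% of all genes, and 10 with q of 0.05 or lower, beside 22.5%. The highest were SCL23 (10 tags, 6.25-fold, q = 7.71e-06), SCR (8 tags, 5.80-fold), HAM2 (5.08-fold) and AT5G66770 (4.95-fold). SCL23, SCR, HAM2, AT5G66770, SCL8 (4.46-fold) and SCL3 (4.14-fold) had higher ethylene reChIP folds than RGL3 (4.08-fold). These lists differ in control and depth, and the difference between air and ethylene was not tested.

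**Figure D4:**
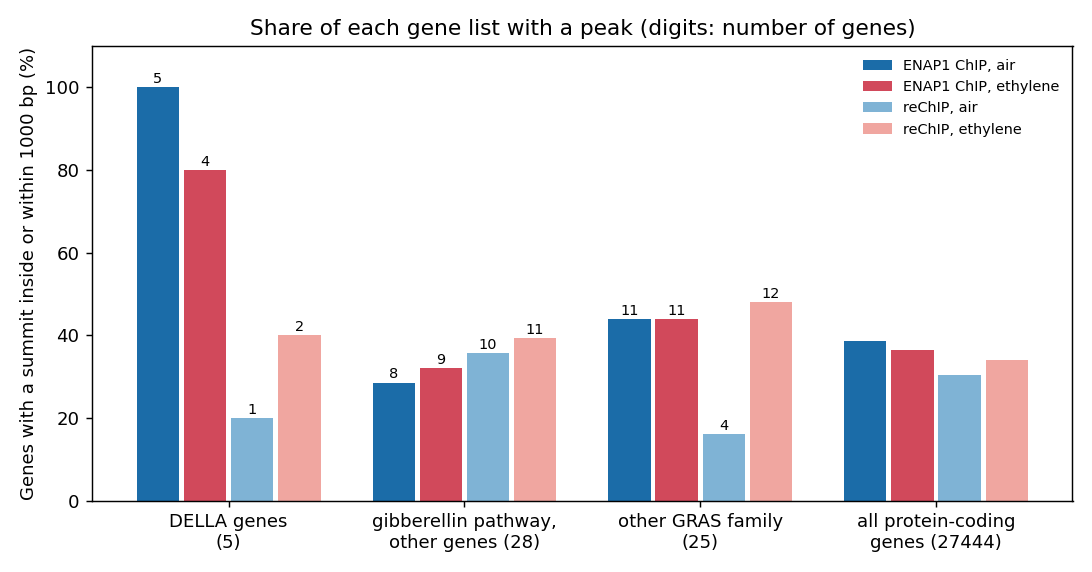
Share of genes with a summit inside or within 1000 bp (percent) in each of the 4 lists, for the 5 DELLA genes, 28 other gibberellin pathway genes, 25 other GRAS family genes and all 27444 protein-coding genes; digits give the number of genes. ENAP1 ChIP reaches 5 and 4 of the DELLA genes, while their reChIP counts are 1 and 2.

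The genes most like each DELLA gene were sought by the fold percentile of the highest peak in the 4 lists, with 0 where a gene was no target, and the mean absolute difference as the measure. AT4G36750 (0.237 percentile points) and AT4G02630 (0.342) were nearest to RGA, AT1G28680 (0.362) and AT1G29195 (0.473) to RGL1, and AT1G10150 and PP2-A10 (0.281 each, through the same peaks) to GAI. AT1G61260 (0.832) and NAC032 (1.56) were nearest to RGL3, and AT1G18280 (1.78) and DGK4 (1.98) to RGL2. NAC032 was no air ENAP1 target, where RGL3 stood at a percentile of 3.49. With 4 lists and 27444 genes, such neighbours describe levels only.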

How the data were processed

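Peak lists of 4 libraries were used; the inputs were not analysed here. The submitters' processing notes list BWA and the TAIR10 build. Peaks came from MACS2 2.1.0.20150603, per the file headers (p cutoff 0.01, genome size 120000000 bp, alignment names that carry q30, 1 tag kept per position, no pooling). The authors deposited the pileup (a signal, in tags brought to the size of the smaller of ChIP and control library), −log10 values of p and q, and the fold enrichment, a ratio over the local control; the q column was used although the headers say q would not be calculated.

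Computed here (Python 3.11.15, pandas 2.3.3): unscaled tags, the pileup multiplied by kept ChIP tags over kept control tags where the control was smaller (100% of values whole within 0.05 tags); exact Poisson 95% intervals (SciPy 1.17.1), which cover counting error only; and the control level, (pileup + 1) / fold − 1. Percentiles are ranks within a list. Depth was 304818 to 8811720 kept tags. Gene edges came from RefSeq TAIR10.1, without strand; none of its coordinates are printed, and no genome sequence was used here. Assignment was tested on simulated data (200 of 200 summits as planted). All gene list members matched.

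Members, lists and the naming rule were chosen with earlier results of these data known. The rule takes the members, other genes at their summits, up to 4 highest-fold genes per list and library, the GID1, SLY1, SNE, SPY and SEC genes, and 2 genes per member with the most similar pattern; genes named as sharing a peak, as having no peak or in counts of 5 or fewer were added after their values were seen. Alternatives were windows of 500 and 2000 bp, q of 0.05 or lower, −log10 q of at least 5, the nearest gene only, overlap of 50% of both peaks and summits at most 100 bp apart. With 1 library per group no test was made.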

Additional observations from a re-analysis of the deposited data

How the results depend on the processing

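Of 72 counts recomputed under the alternatives, 51 stayed within 1.5 times of the value reported. The ENAP1 counts of 5 (air) and 4 (ethylene) DELLA genes stayed the same with windows of 500 and 2000 bp, q of 0.05 or lower and the nearest gene only. With −log10 q of at least 5, the DELLA count was 2 in air (RGA and RGL2), 3 in ethylene (without RGL1), and 0 in each reChIP list; the gibberellin pathway gave 3, 4, 0 and 0 and the other GRAS genes 6, 6, 0 and 1 (ENAP1 air, ENAP1 ethylene, reChIP air, reChIP ethylene), beside 26.9%, 22.4%, 0.222% and 0.707% of all genes. With q of 0.05 or lower the reChIP counts in air were 0 DELLA, 2 pathway and 0 GRAS genes, beside 7.07% of all genes. In the ethylene reChIP the DELLA count was 1, beside 22.5%. For ENAP1 in ethylene the pathway count was 4 with a window of 500 bp and 4 with the nearest gene only, beside 31.7% and 26.7%. For the air reChIP the GRAS count was 7 with 2000 bp and 2 with the nearest gene only, beside 40.7% and 23.5%. A 2000 bp window added GAI to the ethylene reChIP, making 3, beside 43.8% of all genes. The overlap of reChIP and ENAP1 peaks in ethylene (RGL3) was 0 with 50% of both peaks and 0 with summits at most 100 bp apart.

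No paired analysis was possible because each group had 1 library; no replicate was left out. Most reChIP values rest on under 10 tags, and at this depth a DELLA gene without a reChIP peak cannot be called unbound. Reads that fit several family members equally were not examined here.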

Other observations

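The space between RGA and the next protein-coding gene held the ENAP1 peak with the highest fold, though not the most tags, within 5000 bp of any DELLA gene. It was outside the window used above. It lay 4368 bp past RGA in air (2:261792-262142; 113 tags, 7.49-fold) and 4362 bp past it in ethylene (2:261780-262079; 114 tags, 8.91-fold), at fold percentiles of 97.0 and 98.4. An air reChIP peak (2:261909-262020) lay inside both, with 5 tags, 3.32-fold enrichment and q = 0.0993, and no ethylene reChIP peak lay there. AT2G01580 was the nearest protein-coding gene, at 3086 bp in air, and AT2G04015, a noncoding RNA gene, was nearer, at 2611 bp.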
